A study of Mus musculus with 15 samples.

Results

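The dorsal part of the E10.5 dorsal aorta with its surrounding tissue (E10 AoD) was compared with the E10.5 urogenital ridges (E10 UGR) by RNA sequencing. The members of this comparison were the 3 E10 AoD and 3 E10 UGR libraries among the 15 of the series, and the genes with at least 0.5 RPM (reads per megaread assigned to genes) in at least 1 of the 6, which were 17832 of the 28876 genes listed. All embryos were of C57BL/6 background and stage E10.5, and each library was made from tissue pieces pooled over embryos, so that all cell types of the piece are included. The 3 libraries of the ventral part of the aorta at the same stage (E10 AoV) are set beside them as a description. Because every library is a pool, p-values measure the spread between pools and not between embryos, and the libraries cannot tell fewer cells of a type from less RNA per cell.

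The aorta-gonad-mesonephros (AGM) region is where the first definitive hematopoietic stem cells of the mouse embryo arise, from endothelium lining the dorsal aorta. Above the aorta lie the notochord, which secretes Sonic hedgehog, the somites, whose ventral part becomes the sclerotome that forms the vertebrae, and the neural tube. Migrating neural crest cells settle beside the aorta to form sympathetic ganglia and adrenal medulla. The urogenital ridges flank the aorta and hold the nephric (Wolffian) duct, the mesonephric tubules, and the coelomic epithelium from which the gonad and adrenal cortex develop, and primordial germ cells migrate toward them.

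The files give no read totals. The worth of 1 read was estimated in each library as a step close to its most frequent low value. It was the step whose whole multiples took most values below 0.5 RPM. By this estimate the 6 libraries had depths of 33.7 to 48.6 megareads. On that scale 3 reads, the most that an observed count of 0 leaves room for, amount to 0.0618 to 0.0891 RPM. These limits cover counting error only. Pearson correlations across genes of log2 values were 0.9944 to 0.9967 within groups and 0.955 to 0.962 between them. A gene was called when its limma adjusted p (Benjamini-Hochberg) was below 0.05 and its log2 fold change, E10 AoD over E10 UGR on the log2(RPM + 0.1) scale, was at least 1 in size. By this rule 1994 genes, 11.2% of those tested, differed: 844 (4.73%) were higher in E10 AoD and 1150 (6.45%) higher in E10 UGR. Over all tested genes the median log2 fold change was -0.05, and ranges of RPM did not overlap between the groups for 51.6%.

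**Figure D1:**
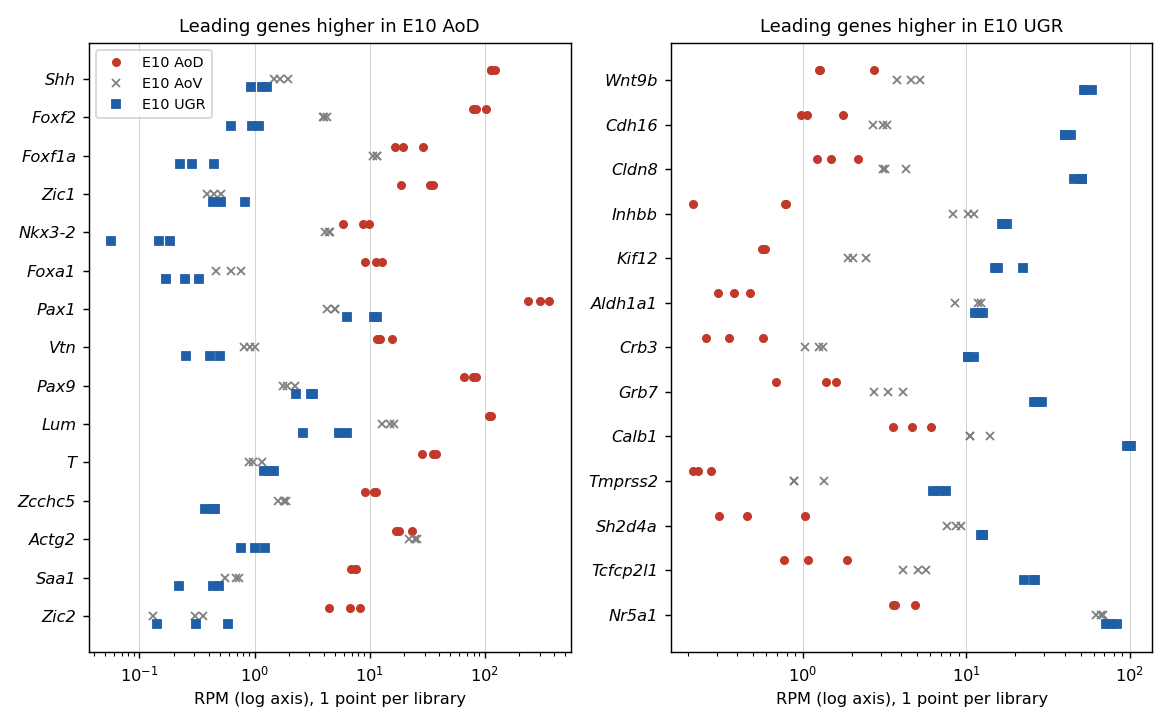
RPM on a log axis of genes with the largest called log2 fold changes in each direction, 1 point per library, for E10 AoD (red circles), E10 AoV (grey crosses) and E10 UGR (blue squares). Red and blue points are separated for all genes drawn, as the choice of these genes required. The grey crosses lie near the red circles for Actg2, near or below the blue squares for Shh, Zic1, Pax1, Pax9 and T, and near the blue squares for Nr5a1 and Aldh1a1.

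The leading genes of E10 AoD included factors of the notochord, the sclerotome and lateral plate mesenchyme. Shh, which encodes the hedgehog ligand secreted by notochord and floor plate, was measured at 124, 113 and 114 RPM in the E10 AoD libraries and at 1.29, 1.16 and 0.937 RPM in those of E10 UGR. The difference, 6.58 on the log2 scale (SE 0.108, limma adjusted p = 7e-08), was the largest among the 15 leading genes. The ventral aorta libraries were on the side of the ridges for this gene, at 1.67, 1.47 and 1.95 RPM. Shh lies on the minus strand of chromosome 5 from 28783355 to 28793641 (NCBIM37).

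Foxf2 and Foxf1a, forkhead transcription factors of hedgehog-responsive mesenchyme, followed Shh. Foxf2 (chromosome 13, 31717685 to 31723272, plus strand) was at 84.4, 103 and 78.6 RPM in E10 AoD against 1.10, 0.946 and 0.62 RPM in E10 UGR, 6.51 on the log2 scale (SE 0.185, adjusted p = 2.34e-07). Foxf1a was at 19.4, 29.1 and 16.6 RPM against 0.444, 0.288 and 0.225 RPM (5.69, SE 0.245). The groups did not overlap for either gene, as the choice of leading genes required. E10 AoV lay nearer to E10 AoD for Foxf1a (10.6 to 11.6 RPM) than for Foxf2 (3.93 to 4.23 RPM).

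The remaining leading genes were Zic1 (log2 fold change 5.40) and Zic2 (3.97), zinc finger factors of dorsal neural tube and somite, the sclerotome factors Nkx3-2 (5.18), Pax1 (4.96) and Pax9 (4.69), Foxa1 (5.02) and T (4.54), which are expressed in notochord, and genes of the extracellular matrix or contractile apparatus, Vtn (4.79), Lum (4.59) and Actg2 (4.16). Zcchc5 (4.35) and Saa1 (3.99) completed the 15. Saa1 has a near-identical neighbour among the serum amyloid genes, and Actg2 shares reads with the other actin genes, so the division of reads between copies bears on both values.

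The genes that led toward the ridges included several of the nephric duct epithelium. Wnt9b, a Wnt ligand of the duct that induces tubules in the mesenchyme beside it, was at 52.3, 59 and 52.9 RPM in E10 UGR and at 1.26, 2.74 and 1.28 RPM in E10 AoD (log2 difference -4.97, SE 0.256, adjusted p = 2.24e-06). The gene lies on the minus strand of chromosome 11 from 103588678 to 103611135. Cdh16, the kidney cadherin, was at 40.1, 43.9 and 40 RPM against 0.974, 1.78 and 1.07 RPM (-4.96, SE 0.191), and Cldn8, a tight junction claudin of distal tubule and collecting duct, at 50.9, 51.2 and 45.5 RPM against 1.49, 2.18 and 1.23 RPM (-4.87, SE 0.176). In each of these genes the highest of the E10 AoD libraries was replicate 2.

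Further leading ridge genes were the calcium-binding protein Calb1 (-4.37), the polarity gene Crb3 (-4.47), the adaptor Grb7 (-4.45), the serine protease Tmprss2 (-4.35), Kif12 (-4.68), Sh2d4a (-4.31), Tcfcp2l1 (-4.31), the inhibin and activin subunit Inhbb (-4.78), the retinaldehyde dehydrogenase Aldh1a1 (-4.65) and Nr5a1 (-4.23), the nuclear receptor SF1 of the gonad and adrenal primordium. In E10 AoV, Inhbb, Aldh1a1, Sh2d4a and Nr5a1 were nearer to their levels in the ridges than Wnt9b, Cdh16 and Cldn8 were. Nr5a1 was at 75.4, 72 and 83.4 RPM in E10 UGR, 66.3, 69 and 62.2 RPM in E10 AoV and 3.59, 4.84 and 3.69 RPM in E10 AoD, whereas Cdh16 did not exceed 3.29 RPM in any E10 AoV library.

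To show the sequence at the start of genes that head both directions, 3 promoters are given from RefSeq (GRCm38.p6, 250 bases before to 50 after the start). They are Foxf2 (chr13:31625566-31625865, plus strand), Wnt9b (chr11:103749772-103750071, minus strand), the highest-ranked genes of each direction that the promoter table holds, and Foxa1 (chr12:57546062-57546361, minus strand), the one gene with a match to a motif searched among the 17 leading genes whose promoters the table holds. Capitals mark that match.
Foxf2: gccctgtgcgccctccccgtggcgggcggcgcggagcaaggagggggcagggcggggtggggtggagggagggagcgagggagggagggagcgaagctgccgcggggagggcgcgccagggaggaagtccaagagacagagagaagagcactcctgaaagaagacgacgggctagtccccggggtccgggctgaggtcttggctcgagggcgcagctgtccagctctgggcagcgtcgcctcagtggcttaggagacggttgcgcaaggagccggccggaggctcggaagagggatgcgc
Wnt9b: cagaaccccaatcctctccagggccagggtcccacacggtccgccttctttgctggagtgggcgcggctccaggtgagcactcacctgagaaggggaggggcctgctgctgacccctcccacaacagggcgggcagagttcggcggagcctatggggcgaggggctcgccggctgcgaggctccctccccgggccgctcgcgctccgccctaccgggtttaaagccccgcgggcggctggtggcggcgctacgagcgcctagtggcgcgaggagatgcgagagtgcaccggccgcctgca
Foxa1: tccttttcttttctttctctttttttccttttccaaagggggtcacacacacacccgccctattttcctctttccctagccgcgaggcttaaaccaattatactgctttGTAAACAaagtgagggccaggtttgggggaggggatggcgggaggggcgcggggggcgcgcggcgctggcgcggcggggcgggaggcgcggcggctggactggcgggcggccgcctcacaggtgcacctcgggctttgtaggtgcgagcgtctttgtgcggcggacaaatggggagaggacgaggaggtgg

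The motifs, searched on both strands, were the forkhead heptamer TGTTTAC, the GLI site TGGGTGGTC of hedgehog effectors and the homeodomain half-site GTTAATNA. The table held promoters for 10 of the 15 genes leading in E10 AoD and for 7 of the 15 leading in E10 UGR. The forkhead heptamer was found in 1 of the 10, that of Foxa1, 141 bases before the start, and in 0 of the 7, and in 3.65% of all 32851 promoters. The GLI site (0.25% of all promoters) and the homeodomain half-site (2.54%) were found in 0 of the 17.

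**Figure D2:**
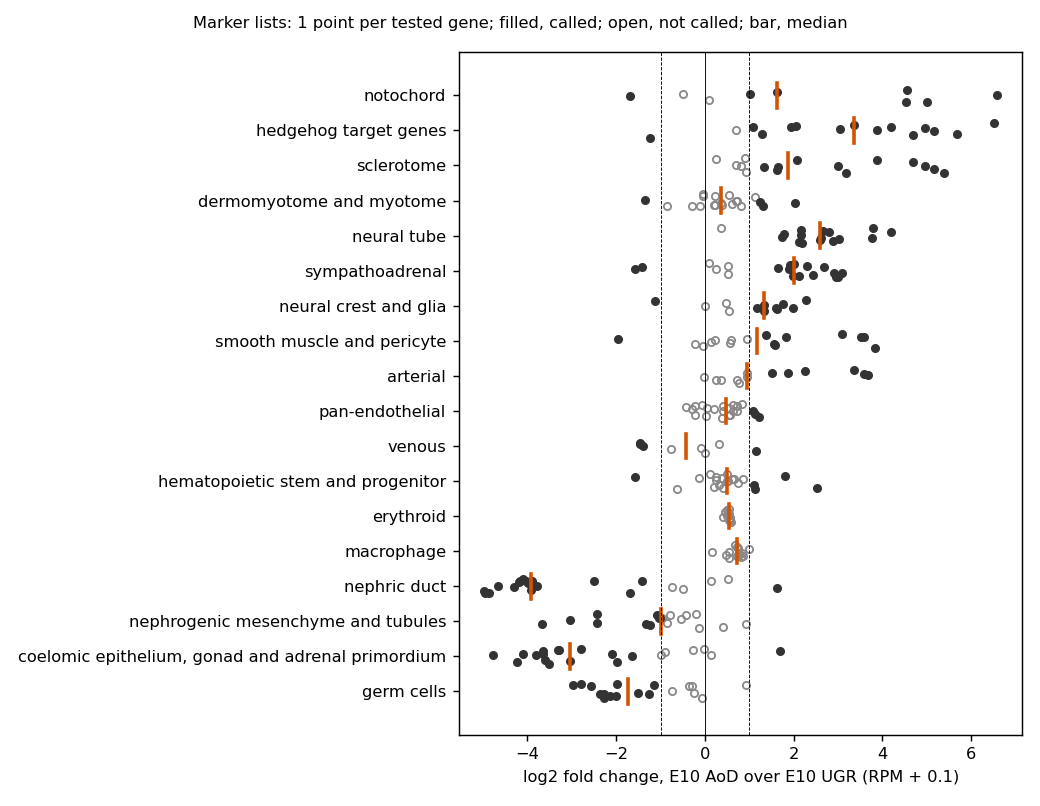
Log2 fold change of E10 AoD over E10 UGR for each tested gene of 18 marker lists, with called genes filled, genes not called open, and the list's median as an orange bar; dashed lines mark the fold threshold of the call. The notochord, hedgehog target, sclerotome and neural lists lie to the right, erythroid and macrophage genes lie in a narrow band just right of 0, and duct, gonad and germ cell lists lie to the left.

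Markers of the notochord were higher in E10 AoD, with 6 of the 9 tested members called upward and 1 downward (list median log2 fold change 1.63). T, the Brachyury factor that defines the notochord, was at 37.4, 28.6 and 35.8 RPM in E10 AoD, 1.21, 1.38 and 1.49 RPM in E10 UGR and 0.895 to 1.17 RPM in E10 AoV. Foxa2, a forkhead factor of notochord and floor plate, was at 6.13, 2.86 and 2.87 RPM in E10 AoD and at 0.0593, 0.0411 and 0.0845 RPM in E10 UGR, about 2, 2 and 3 reads. The ratio of summed reads per library size was 65.9 (exact 95% binomial interval 31.7 to 165, counting error only), with 474 reads against 7. Sox9 (1.63) and the BMP antagonist Nog (1.015) were also called, the latter not without E10 AoD replicate 3 (0.97), E10 UGR replicate 1 (0.91) or E10 UGR replicate 3 (0.999). Chrd, another BMP antagonist of the notochord, was not (0.08, adjusted p = 0.579). The keratins Krt8 (-0.50) and Krt18 (-1.68, called), which epithelia express too, had negative values.

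Hedgehog target genes gave the highest list median of those with over 10 tested members. The lists were chosen with earlier results of these data known, so this rank is a description only. Of 15 tested, 13 were higher in E10 AoD and 1, the intermediate mesoderm factor Osr1 (-1.23), was higher in E10 UGR, with a median of 3.36 against -0.05 over all genes. Of the 13, Foxs1 (1.095) was not called without E10 AoD replicate 1 (1.018), E10 AoD replicate 2 (0.9934) or E10 UGR replicate 1 (0.779). The receptor Ptch1, which hedgehog signalling induces, was at 338, 362 and 357 RPM in E10 AoD against 89.4, 88.3 and 77.7 RPM in E10 UGR (2.05, SE 0.0596, adjusted p = 2.34e-07). Hhip, a decoy receptor, was at 20, 22.8 and 24.1 RPM against 2.25, 2.26 and 1.75 RPM (3.36, SE 0.12), and Gli1, the transcriptional effector that is itself a target, had a log2 fold change of 1.94. Foxl1, listed under a clone name and identified by its Ensembl ID, was at 11.8 to 15.6 RPM against 1.30 to 1.81 RPM (3.04).

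Of 15 hedgehog ligands, receptors and transducers tested, 7 were higher in E10 AoD, among them Scube2 (1.2, and 0.99 without E10 UGR replicate 1), which helps release the ligand, and 1 was higher in E10 UGR (median 0.66). The coreceptors Gas1 (-1.37), Cdon (-0.83) and Boc (-0.40) all had negative values, and of these Gas1 was called, at 45.7, 70 and 55.3 RPM against 158, 135 and 145 RPM in E10 UGR. Smo, the signal transducer, was at 239 to 255 RPM in E10 AoD and 264 to 278 RPM in E10 UGR (-0.11, adjusted p = 0.0622). Gli2 had a log2 fold change of 0.66 and Gli3 of -0.31, neither called. Dhh, the hedgehog ligand of endothelium and Sertoli cells, was at 4.28, 4.47 and 4.07 RPM against 1.39, 1.05 and 1.32 RPM (1.70) and at 3.79 to 4.12 RPM in E10 AoV, unlike Shh.

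Sclerotome genes were higher in E10 AoD for 11 of 16 tested members and lower for 0 (list median 1.87). Pax1, a paired-box factor that hedgehog signal switches on in the sclerotome, was at 300.2, 360 and 236 RPM in E10 AoD against 11, 11.6 and 6.39 RPM in E10 UGR (4.96, SE 0.23). Cartilage matrix genes were among the most abundant differences, with Col2a1 at 981, 995 and 856 RPM against 119, 125 and 110 RPM (2.998, SE 0.0695, adjusted p = 1.97e-07) and Acan at 16.8 to 27.3 RPM against 2.08 to 2.32 RPM (3.17). Foxc1 (0.92), Uncx (0.91) and Scx (0.24), a factor of tendon progenitors, were not called, although Foxc1 (1.015) and Uncx (1.04) were without E10 AoD replicate 3. E10 AoD replicate 3 was the lowest of its group for 9 of the 11 called members, and E10 UGR replicate 3 for 9 of 11.

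Of 20 dermomyotome and myotome genes tested, 3 were higher in E10 AoD (4.73% over all genes). They were the actins Actc1 (2.02) and Acta1 (1.31), with the reservation above on reads shared among actins, and the myosin light chain Myl4 (1.24). The receptor Met (-1.36), which duct epithelium also expresses, was the 1 member higher in E10 UGR (6.45% over all genes). Acta1 was not called without E10 AoD replicate 1 (1.29), E10 UGR replicate 1 (1.28) or E10 UGR replicate 3 (0.92), nor Myl4 without E10 AoD replicate 2 (0.98), and without E10 UGR replicate 2 the number higher in E10 AoD was 6. Myog, the myogenic factor of differentiating muscle cells, was at 18, 29.9 and 23.8 RPM in E10 AoD and at 26.1, 39 and 14 RPM in E10 UGR (-0.05, SE 0.337, adjusted p = 0.925), and at 1.30 to 2.21 RPM in E10 AoV. The groups overlapped for this gene, and for Myf5 (1.66 to 5.34 RPM in the 6 libraries), Myod1 (1.26 to 4.91 RPM) and Pax3 (5.94 to 13.2 RPM). The sign of Myog, Myod1 and Pax3 turned with other scalings or with 1 library left out. Summed over the list, values ran from 200 to 336.5 RPM in E10 UGR and from 368.9 to 420.9 RPM in E10 AoD.

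Neural tube markers were higher in E10 AoD for 15 of 16 tested members (median 2.61), with low absolute levels for the patterning factors. Tubb3, a tubulin of neurons, was at 136, 121 and 115 RPM in E10 AoD against 15.8, 18 and 19.6 RPM in E10 UGR (2.79), and Elavl3, a neuronal RNA-binding protein, at 10.1 to 12.4 RPM against 1.23 to 1.61 RPM (2.89). Nkx2-2 and Nkx6-1, factors of the ventral neural tube next to the notochord, had log2 fold changes of 4.21 and 3.80 at 2.21 to 4.66 RPM and 5.02 to 8.92 RPM in E10 AoD, and Mnx1, a motor neuron factor, of 3.76 at 2.11 to 2.87 RPM. Whether these came from neural tube, ganglia or nerves in the dissected tissue was not tested.

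Genes of sympathoadrenal cells were called higher in E10 AoD for 14 of 20 tested members and higher in E10 UGR for 2 (median 2.0). Dbh, which converts dopamine to noradrenaline, was at 114, 103 and 79.4 RPM against 11.3, 10.2 and 12.6 RPM (3.10, SE 0.131, adjusted p = 8.52e-07), and Th, the rate-limiting enzyme of catecholamine synthesis, at 14.5 to 20.7 RPM against 2.13 to 2.20 RPM (2.99). The granin genes Chgb (3.0) and Chga (2.92) and the factors Phox2a (2.96), Insm1 (2.31) and Hand2 (1.66) were called too. The groups did not overlap for any of these called genes, as for 842 of the 844 genes called higher in E10 AoD. Gata2 (-1.59) and Gata3 (-1.42), which sympathetic neurons need but duct epithelium also expresses, were higher in E10 UGR, and Tcfap2b (0.24) and Ret (0.53) were not called.

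Neural crest and glial genes were called upward in E10 AoD for 8 of 12 tested members and downward for 1 (median 1.33). Sox10, the factor of migrating crest and Schwann cell precursors, was at 60.2, 56.6 and 59 RPM in E10 AoD and 18.4 to 20.3 RPM in E10 UGR (1.60, SE 0.0529), and E10 AoV was below both (6.81 to 9.83 RPM). Fabp7 (2.27) and Foxd3 (1.76) were higher in E10 AoD as well. Tcfap2a, a crest factor that epithelia also express, was the 1 member higher in E10 UGR (-1.13), and the neuregulin receptor Erbb3 (0.48) was not called. For 2 of the 12 members the E10 AoV mean exceeded that of the ridges.

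**Figure D3:**
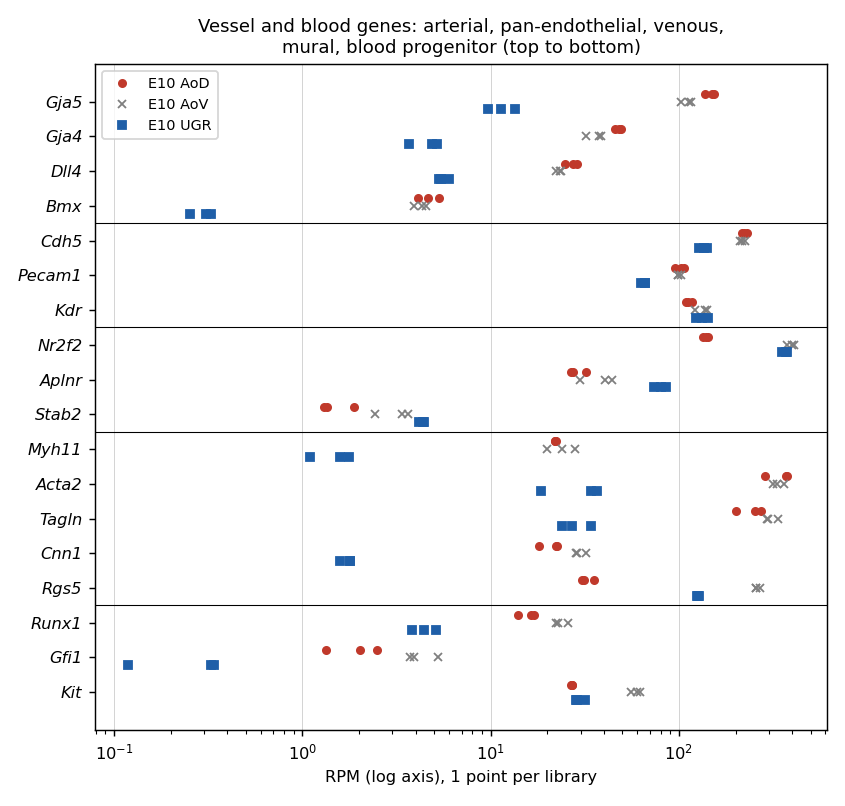
RPM on a log axis of vessel and blood genes, 1 point per library, for E10 AoD (red circles), E10 AoV (grey crosses) and E10 UGR (blue squares), grouped by horizontal lines into arterial, pan-endothelial, venous, mural and blood progenitor genes. Arterial and smooth muscle genes of both aorta groups lie well above the ridges, pan-endothelial genes lie close together, and Nr2f2, Aplnr, Stab2 and Rgs5 are lower in E10 AoD.

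Of 22 genes that most endothelium expresses, 3 (Sox17, Sox7 and Mmrn2) were called higher in E10 AoD and 0 higher in E10 UGR, with a median log2 fold change of 0.48. Over all genes tested 4.73% were called higher in E10 AoD and 6.45% higher in E10 UGR. With the adjusted p alone 15 of the 22 were higher in E10 AoD and 3 in E10 UGR, against 2759 and 4547 of all 17832 genes tested. Cdh5, VE-cadherin of endothelial junctions, was at 222, 215 and 230 RPM in E10 AoD and 136, 141 and 128 RPM in E10 UGR (0.72, SE 0.0474, adjusted p = 8.1e-06), and Pecam1 at 94.9 to 106 RPM against 63.1 to 66.1 RPM (0.64). Kdr, the VEGF receptor, was at 109, 112 and 117 RPM against 132, 143 and 123 RPM (-0.23, adjusted p = 0.0132).

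Of 13 arterial genes tested, 6 were higher in E10 AoD and 0 in E10 UGR (median 0.96). Gja5, which encodes a connexin of arterial gap junctions, was at 149, 138 and 153 RPM in E10 AoD, 103, 113 and 116 RPM in E10 AoV and 13.5, 11.4 and 9.64 RPM in E10 UGR (E10 AoD over E10 UGR 3.67, SE 0.109, adjusted p = 2.34e-07). The kinase Bmx (3.59), the connexin Gja4 (3.37), the Notch ligand Dll4 (2.25), the chemokine receptor Cxcr4 (1.87) and Jag2 (1.5) were called as well, and Efnb2, the ephrin that marks arteries, was just below the fold threshold at 0.95 (214 to 227 RPM against 106 to 122 RPM, adjusted p = 4.12e-06) and was called without E10 UGR replicate 1 (1.002). Set against Cdh5 in the same library, the RPM ratio of Gja5 was 0.671, 0.642 and 0.665 in E10 AoD and 0.0993, 0.0809 and 0.0753 in E10 UGR, and that of Dll4 was 0.115 to 0.125 against 0.0387 to 0.044. These ratios did not overlap, and with 3 libraries against 3 an exact two-sided permutation test cannot give a p below 0.1.

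Of 8 venous genes, 3 were higher in E10 UGR (6.45% over all genes) and 1 in E10 AoD (4.73%), median -0.43. Nr2f2 (COUP-TFII), the factor of venous identity that mesenchyme also expresses, was at 134, 139 and 143 RPM in E10 AoD and 371, 351 and 373 RPM in E10 UGR (-1.40, SE 0.0423, adjusted p = 2.34e-07). Aplnr, the apelin receptor of veins, was at 27.4, 32 and 26.7 RPM against 73.6, 85.3 and 79.8 RPM (-1.47), and Stab2, of sinusoidal and venous endothelium, had the same log2 fold change at 1.31 to 1.88 RPM against 4.17 to 4.45 RPM. Ephb4, the venous partner of Efnb2, was not called (-0.09), and Nrp2, which nerves and mesenchyme express too, was higher in E10 AoD (1.15). For Nr2f2, E10 AoV was on the side of the ridges at 374 to 409 RPM.

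Of 16 smooth muscle and pericyte genes, 8 were higher in E10 AoD and 1 in E10 UGR (median 1.17). Myh11, the smooth muscle myosin heavy chain, was at 21.9, 22.3 and 22 RPM in E10 AoD against 1.76, 1.59 and 1.10 RPM in E10 UGR (3.83, SE 0.153, adjusted p = 6.32e-07) and at 19.9 to 28 RPM in E10 AoV. Acta2 was at 372, 287 and 373 RPM against 34.1, 36.8 and 18.5 RPM (3.58), with the same reservation on reads shared among actins, and Cnn1 (3.52) and Tagln (3.09) followed. The pericyte gene Rgs5 went the opposite way, at 31.3, 35.5 and 30.6 RPM in E10 AoD against 128, 124 and 126 RPM in E10 UGR (-1.96, SE 0.0592) and 256 to 271 RPM in E10 AoV. Pdgfrb, the receptor of mural and other mesenchymal cells, was not called (0.59).

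Among 21 genes of hematopoietic stem and progenitor cells, 4 were higher in E10 AoD and 1 in E10 UGR (median 0.50). The shares over all genes tested were 4.73% and 6.45%. With the limma adjusted p alone 13 were higher in E10 AoD and 2 in E10 UGR, against 2759 and 4547 of all 17832 genes tested. Runx1, the transcription factor required for the endothelial-to-hematopoietic transition, was at 16.3, 13.9 and 17 RPM in E10 AoD, 22.1, 22.9 and 25.7 RPM in E10 AoV and 5.15, 4.42 and 3.83 RPM in E10 UGR (E10 AoD over E10 UGR 1.80, SE 0.122, adjusted p = 9.65e-06). Gfi1, a repressor that Runx1 activates in this transition, was at 2.02, 1.33 and 2.49 RPM in E10 AoD, 3.71 to 5.22 RPM in E10 AoV and 0.119, 0.329 and 0.338 RPM in E10 UGR (2.52, SE 0.323). The level of each was thus ordered E10 UGR, E10 AoD, E10 AoV, without overlap between neighbours. Sfpi1 (PU.1, 1.13) and Hlf (1.11) were called at low levels, 5.56 to 6.2 RPM and 4.51 to 4.74 RPM in E10 AoD, and Hlf was not called without E10 UGR replicate 2 (0.91).

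Kit, the receptor of stem cell factor, was at 26.8, 26.9 and 27 RPM in E10 AoD and 28.9, 31.8 and 28.4 RPM in E10 UGR (-0.14, adjusted p = 0.0758), and Ptprc, the pan-leukocyte antigen CD45, at 4.48 to 5.35 RPM against 3.97 to 4.18 RPM (0.26). Gata2 was higher in E10 UGR, at 64.2, 67.5 and 61.8 RPM against 22.5, 22.6 and 19.3 RPM (-1.59), and duct and sympathetic cells express it too. Cd34 (0.61) and Mecom (0.42) were not called. Erythroid and macrophage genes, markers of circulating and tissue blood cells, are set beside these. All 13 erythroid members tested had positive log2 fold changes from 0.40 to 0.59 with 0 called, and all 14 macrophage members from 0.17 to 0.999 with 0 called by limma with both thresholds. Aif1, the macrophage member at 0.999, was called without E10 AoD replicate 2 (1.012), E10 AoD replicate 3 (1.11) or E10 UGR replicate 2 (1.12). With the adjusted p alone 10 erythroid and 12 macrophage members were higher in E10 AoD, as were 2759 of all 17832 genes tested. The erythroid sum was 10340 to 13680 RPM in E10 AoD and 6351 to 10070 RPM in E10 UGR, and the macrophage sum 92.4 to 106 against 57 to 66.1 RPM. Hbb-y, the embryonic beta globin, was at 3880, 5080 and 5180 RPM in E10 AoD and 2440, 3850 and 3440 RPM in E10 UGR (0.55, limma adjusted p = 0.0335), with the lowest E10 AoD library just above the highest of E10 UGR. The part of blood content in the values of Runx1 and Gfi1 was not tested.

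Of 21 nephric duct markers, 16 were higher in E10 UGR and 1, Sox9, in E10 AoD (median -3.92). Besides the leading genes, Emx2 (-4.19), Pax8 (-4.18) and Pax2 (-4.03), factors of the early duct, Lhx1 (-3.92) and the epithelial genes Cdh1, E-cadherin (-3.99), and Epcam (-3.91) were called. Pax2 was at 29.6, 28.9 and 35.8 RPM in E10 UGR against 1.18, 2.26 and 2.23 RPM in E10 AoD. Sim1, a factor of nephric duct and somite, differed less, at 52.6 to 54.9 RPM against 8.35 to 12 RPM (-2.49). Wnt11 (-0.74), the ligand of the ureteric tip, Krt19 (0.14) and Ret (0.53), the GDNF receptor that enteric and sympathetic crest also express, were not called. Of the 17 called members, 13 were highest in replicate 2 among the E10 AoD libraries, and without that library 16 were again called higher in E10 UGR.

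Of 37 claudins and classical cadherins tested, 15 were higher in E10 UGR and 4 in E10 AoD (median -0.43). Cldn6 (-4.14), Cldn7 (-3.90) and Cldn4 (-3.84) accompanied Cldn8, with Cldn6 at 57.5, 58.2 and 60.1 RPM in E10 UGR against 2.27, 4.79 and 3.05 RPM. Cdh11, the cadherin of mesenchyme, was at 384, 385 and 368 RPM in E10 AoD against 129, 123 and 108 RPM (1.66), and Cdh13 (2.40), the glial Cdh19 (1.34) and Cdh12 (1.38) were higher there too, Cdh12 not without E10 AoD replicate 1 or E10 UGR replicate 2 (adjusted p 0.0627 and 0.0549 by limma). N-cadherin, Cdh2, was at 188 to 204 RPM against 174 to 192 RPM (0.11, adjusted p = 0.107).

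Nephrogenic mesenchyme and tubule genes were called higher in E10 UGR for 9 of 18 tested members and in E10 AoD for 0 (median -0.99). Without E10 AoD replicate 3 the latter number was 1, Foxc1 (0.92, then 1.015). Of the 9, Ncam1 (-1.001) was not called without E10 AoD replicate 1 or 3 or E10 UGR replicate 1 or 2 (-0.98 to -0.96). Cited1 (-1.04) was not called without E10 AoD replicate 3 (-0.97). Gdnf (-0.97) was called without E10 AoD replicate 3 (-1.03) or E10 UGR replicate 2 (-1.17). Wnt4, the ligand that mesenchyme expresses as it turns into tubules, was at 111, 123 and 113 RPM in E10 UGR against 8.51, 11.2 and 7.39 RPM in E10 AoD (-3.68, SE 0.133, adjusted p = 4.32e-07). Wt1, the factor of coelomic epithelium, mesonephric glomeruli and gonad, was at 382, 350 and 379 RPM against 37.7, 53.8 and 44.2 RPM (-3.04), and Podxl (-2.44), Fgf8 (-2.42), Six2 (-1.33) and Sall1 (-1.08) were called, Sall1 not without E10 AoD replicate 2 (-0.99). Eya1 (-0.12) and Bmp7 (-0.86) were not.

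Genes of the coelomic epithelium and of the gonad and adrenal primordium were higher in E10 UGR for 15 of 21 tested members, with Dhh the 1 member higher in E10 AoD (median -3.04). Amhr2 (-4.09), the anti-Müllerian hormone receptor, the mesothelial gene Upk3b (-3.82), Lhx9 (-3.66), Tcf21 (-3.65) and Gata4 (-3.61) followed Nr5a1. Gata4, which the coelomic epithelium needs to thicken into the gonad, was at 64.9, 57.8 and 69.4 RPM in E10 UGR and 4.07, 5.24 and 6.32 RPM in E10 AoD, but at 216, 236 and 248 RPM in E10 AoV. Of the 21 members, 12 had an E10 AoV mean above that of the ridges, as had 4 of the 21 duct markers. Star, of steroid synthesis, was at 5.63 to 6.23 RPM in E10 UGR and not called (-0.98), but passed the fold threshold without E10 AoD replicate 2 (-1.08) or E10 UGR replicate 3 (-1.02).

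Germ cell genes were called higher in E10 UGR for 12 of 18 tested members and in E10 AoD for 0 (median -1.74). Pou5f1 (Oct4) was at 2.52, 2.86 and 2.51 RPM in E10 UGR, 0.0769, 0.326 and 0.45 RPM in E10 AoD and 13.8, 14.8 and 15.6 RPM in E10 AoV (E10 AoD over E10 UGR -2.98, SE 0.375, adjusted p = 0.000341). Tdh (-2.78), Nanog (-2.57), Esrrb (-2.27) and Dppa3 (-2.0) showed the same order, with E10 AoV highest. The germ cell gene Ddx4 was at 0.677 to 0.999 RPM in E10 AoD and at most 1.13 RPM in E10 UGR (-0.35, not called), and Sall4, which many embryonic tissues express, had a value of 0.92. With a pseudocount of 1 RPM the number called was 4, and with at least 1 RPM asked of 3 libraries it was 5.

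**Figure D4:**
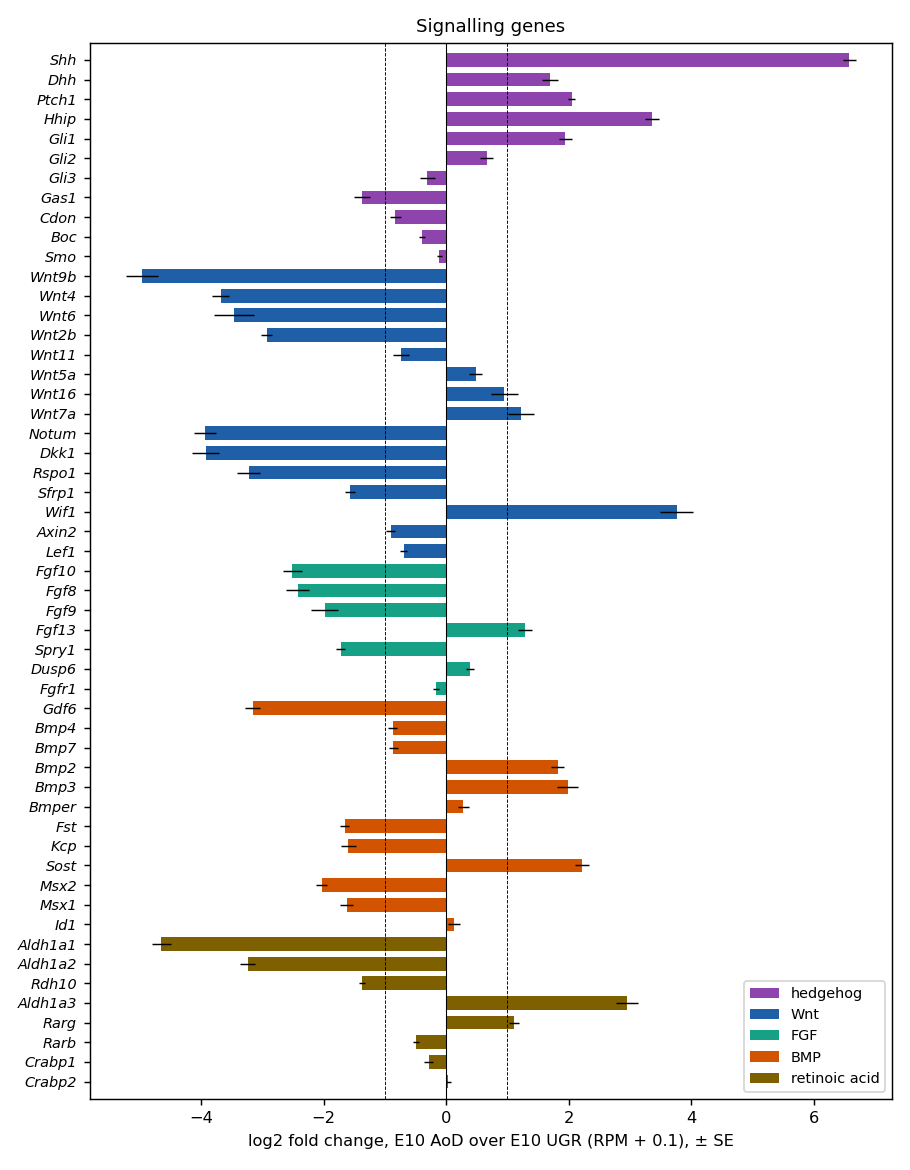
Log2 fold change of E10 AoD over E10 UGR, with SE bars, for genes of 5 signalling pathways (colours); dashed lines mark the fold threshold. Hedgehog bars run to the right except for the coreceptors, Gli3 and Smo, most Wnt and FGF ligands run to the left, and BMP and retinoic acid genes run both ways.

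Of 13 Wnt ligands tested, 7 were higher in E10 UGR and 1 in E10 AoD (median -1.65). After Wnt9b and Wnt4 came Wnt6 (-3.46, 5.45 to 6.15 RPM in E10 UGR) and Wnt2b (-2.93, 14.6 to 15.8 RPM). Wnt7a, the 1 ligand called higher in E10 AoD, was at 1.51, 1.0 and 0.90 RPM there against 0.37 to 0.479 RPM (1.22). Wnt5a was at 64.6 to 80.9 RPM against 44.3 to 55.1 RPM (0.48) and Wnt16 at 12.4 to 17.3 RPM against 4.96 to 9.09 RPM (0.95), neither called. Wnt16 passed the fold threshold when any of 4 libraries was left out, E10 AoD replicates 1 and 3 and E10 UGR replicates 1 and 2 (1.02 to 1.12), so that 2 ligands were then higher in E10 AoD.

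Notum, a lipase that inactivates Wnt ligands (-3.93), Dkk1 (-3.93, 20.5 to 23.7 RPM in E10 UGR) and Sfrp1 (-1.57, 371 to 414 RPM) were higher in E10 UGR, as was the R-spondin Rspo1 (-3.22, 35.2 to 36.8 RPM), which enhances Wnt signalling and acts in ovary development. Wif1, which binds Wnt ligands, was at 6.92, 7.45 and 6.58 RPM in E10 AoD against 0.504, 0.617 and 0.225 RPM (3.77). Of 18 secreted inhibitors, R-spondins and targets, 6 were called in each direction. The target genes Axin2 (-0.91) and Lef1 (-0.70) had negative values below the fold threshold with adjusted p of 2.44e-05 and 2.74e-05, and the target and R-spondin receptor Lgr5 was called (-2.37).

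FGF pathway genes were called higher in E10 UGR for 9 of 27 tested members (6.45% over all genes), with a median of -0.16. In E10 AoD 1 was called higher (4.73% over all genes), Fgf13 (1.28), which encodes an intracellular FGF homologue. Without E10 UGR replicate 2 the members higher in E10 AoD were 3. Fgf10, a ligand of mesenchyme, was at 25.6, 22.3 and 26.3 RPM in E10 UGR against 3.36, 5.42 and 4.18 RPM in E10 AoD (-2.51) and higher again in E10 AoV at 55.5 to 61.6 RPM. Fgf8 (-2.42) and Fgf9 (-1.99) were below 5 RPM in the ridges. The feedback inhibitor Spry1 was at 83.6 to 91.2 RPM against 23.7 to 29.4 RPM (-1.72), whereas the feedback phosphatase Dusp6 (0.39) and the receptor Fgfr1 (-0.16) were not called.

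Of 11 BMP ligands tested, 2 were higher in E10 AoD (4.73% over all genes) and 2 in E10 UGR (6.45%), median -0.15. Gdf6 was at 8.71, 10.8 and 8.65 RPM in E10 UGR against 0.897, 1.0 and 0.971 RPM in E10 AoD (-3.16, SE 0.12), while Bmp3 (1.98) and Bmp2 (1.82, 24.3 to 31 RPM against 7.28 to 8.83 RPM) were higher in E10 AoD. Gdf5, below 1 RPM in all 6 libraries (-1.22), was not called without E10 AoD replicate 3 (-0.94), E10 UGR replicate 1 (-1.06) or E10 UGR replicate 2 (-1.08). Bmp4 was at 28.5, 25.5 and 31.1 RPM against 52.2, 49 and 54.8 RPM, without overlap, but below the fold threshold (-0.88, adjusted p = 4.36e-05). Of the secreted modulators, Sost (2.22) and Nog were called higher in E10 AoD and Fst (-1.66), Kcp (-1.60) and Grem1 (-1.02) in E10 UGR. Nog was not called without E10 AoD replicate 3 (0.97), E10 UGR replicate 1 (0.91) or E10 UGR replicate 3 (0.999), and Grem1 not without replicate 1 of E10 AoD (-0.91) or of E10 UGR (-0.87). Bmper was close in both at 41 to 45.1 RPM against 30.2 to 38.3 RPM (0.28, adjusted p = 0.0383). Among receptors and target genes 2 of 15 were called, against 11.2% of all genes tested. These were Msx2 (-2.03) and Msx1 (-1.63), both higher in E10 UGR. The target Id1 (0.13) and the receptor Bmpr1a (-0.08) were not.

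Of 18 retinoic acid genes tested, 2 were higher in E10 AoD (4.73% over all genes) and 3 in E10 UGR (6.45%), median -0.10. Aldh1a2, the main retinaldehyde dehydrogenase of embryonic mesoderm, was at 425, 391 and 402 RPM in E10 UGR against 34.7, 51.4 and 44.3 RPM in E10 AoD (-3.24, SE 0.123, adjusted p = 5.08e-07), and Rdh10, which makes retinaldehyde, at 82.1 to 88 RPM against 31.6 to 34.2 RPM (-1.38). Aldh1a3 was at 19.7, 17.3 and 20.2 RPM in E10 AoD against 2.67, 2.94 and 1.69 RPM (2.95, SE 0.185). The RPM ratio of Aldh1a3 to Aldh1a2 within a library was 0.337 to 0.568 in E10 AoD, 0.0042 to 0.00752 in E10 UGR and 0.0054 to 0.00744 in E10 AoV. The receptor Rarg was higher in E10 AoD (1.11), and Rarb, a target of the pathway, was not called (-0.49). Neither were the binding proteins Crabp1 (-0.29) and Crabp2 (0.04).

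Of 17 cytokines and growth factors linked to stem cell niches, 4 were higher in E10 AoD and 3 in E10 UGR (median 0.45). The shares over all genes tested were 4.73% and 6.45%. Kitl, the ligand of Kit known as stem cell factor, was at 181, 172 and 184 RPM in E10 UGR against 37.3, 39.4 and 41.8 RPM in E10 AoD (-2.18, SE 0.0518, adjusted p = 2.09e-07), and E10 AoV was above both at 215 to 227 RPM. Pdgfa (-1.08) and Igf1 (-1.08) were also higher in E10 UGR, Igf1 not without E10 AoD replicate 1 (-0.98) or E10 UGR replicate 2 (-0.95), while Igf2 was at 5780 to 6020 RPM in E10 AoD and 4200 to 4660 RPM in E10 UGR (0.41, not called). The chemokine Cxcl12, by contrast, was at 1350, 1320 and 1330 RPM in E10 AoD against 576, 519 and 559 RPM (1.27, SE 0.0475), and Vegfc (1.70), Angpt2 (1.41) and Tgfb2 (1.38) were higher there too.

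Of 8 renin-angiotensin genes listed, 4 reached the level for testing, with 2 higher in E10 AoD and 1 in E10 UGR (median 1.73). Agtr2, an angiotensin receptor of fetal mesenchyme, was at 90.3, 94.2 and 65.9 RPM in E10 AoD against 9.92, 9.42 and 9.24 RPM in E10 UGR (3.10, SE 0.123, adjusted p = 6.24e-07), and Ace, which embryonic endothelium expresses, at 6.52, 6.44 and 5.58 RPM against 0.887, 0.798 and 0.897 RPM (2.71). For Ace, E10 AoV was near E10 AoD at 4.31 to 4.84 RPM, and for Agtr2 it was near the ridges at 11.2 to 18.3 RPM.

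**Figure D5:**
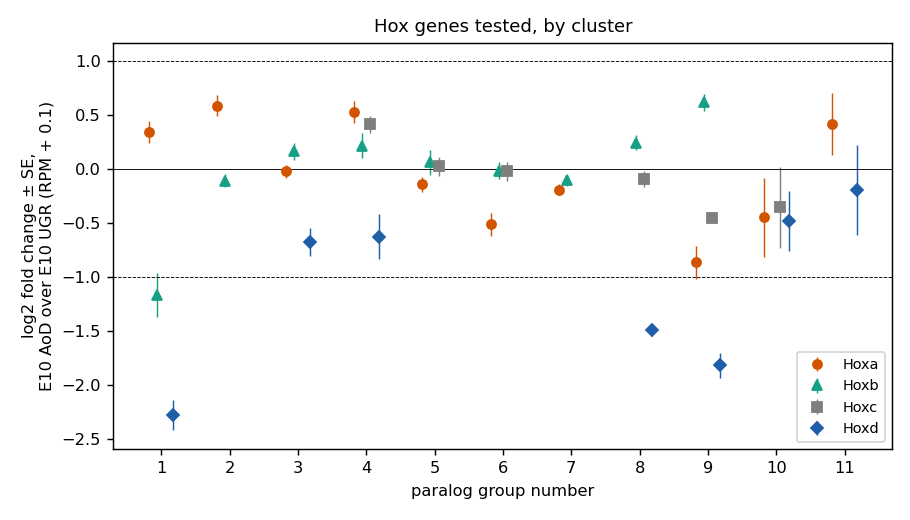
Log2 fold change of E10 AoD over E10 UGR, with SE bars, of the 32 Hox genes tested, against paralog group number, by cluster (shape and colour); dashed lines mark the fold threshold. The blue diamonds of the Hoxd cluster all lie below 0, and Hoxa, Hoxb and Hoxc genes scatter around 0 except Hoxb1.

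Of 32 Hox genes tested, which pattern the body axis, 4 were called (11.2% over all genes tested), all higher in E10 UGR (median -0.11). These were Hoxd1 (6.34, 5.94 and 4.96 RPM in E10 UGR against 0.948, 1.2 and 1.16 RPM, -2.28), Hoxd9 (-1.81), Hoxd8 (61.4, 55.9 and 61.5 RPM against 20.8, 21.9 and 20.8 RPM, -1.49) and Hoxb1 (-1.17). All 7 tested Hoxd genes had negative values (median -0.68), whereas Hoxa (6 of 10 negative), Hoxb (4 of 9) and Hoxc (4 of 6) had medians of -0.08, 0.07 and -0.05. The limma adjusted p was below 0.05 for 5 of the 7 Hoxd genes. In either direction it was so for 6 of 10 Hoxa, 3 of 9 Hoxb and 2 of 6 Hoxc genes, and for 7306 of all 17832 genes tested. Hoxa values ran from -0.86 to 0.59. Hoxb9, not called, was at 154, 138 and 166 RPM in E10 AoD against 99, 91.9 and 107 RPM (0.62). The library kit does not mark strand, so reads of overlapping antisense transcripts in these clusters cannot be told apart from those of the genes.

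Collagen chains were higher in E10 AoD for 16 of 37 tested and in E10 UGR for 3 (median 0.89). Besides Col2a1, the fibril partners Col5a3 (3.83, 36.7 to 51.5 RPM against 2.37 to 3.58 RPM), Col9a2 (3.53), Col11a2 (3.06), Col9a1 (2.59) and Col11a1 (2.06) were called, and Col4a6 (-1.58), Col4a5 (-1.03) and Col15a1 (-1.03), chains of basement membranes, were higher in E10 UGR. Without E10 AoD replicate 3 that number was 1, as Col4a5 (-0.9999) and Col15a1 (-0.96) were then just under the fold threshold, and Col4a5 was also under it without E10 UGR replicate 2 (-0.998). Of 18 factors of lateral plate and body wall mesenchyme, 4 (Foxf2, Foxf1a, Hand1 and Hand2) were higher in E10 AoD and 8 in E10 UGR (median -0.47). Hand1 was at 9.07, 8.44 and 5.38 RPM against 1.04, 0.966 and 1.04 RPM (2.76) and at 34.5 to 40.2 RPM in E10 AoV. Osr2 (-2.93), Alx1 (-2.48), Alx4 (-1.97) and Tbx3 (-1.48) were higher in E10 UGR, and Prrx1 (0.58) was not called. Alx1 was at 38.1, 35.4 and 34.6 RPM in E10 UGR against 5.59, 7.08 and 6.46 RPM.

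Of 20 Notch pathway genes, 6 were higher in E10 AoD (4.73% over all genes) and 0 in E10 UGR (6.45%), median 0.56. Of the 6, Hes5 (1.12) was not called without E10 AoD replicate 1 (0.85). Mfng (1.02) was not called without E10 AoD replicate 1 (0.95), E10 AoD replicate 3 (0.98) or E10 UGR replicate 2 (0.98). Hey2 (0.96) was called without E10 AoD replicate 2 (1.02). Beside the arterial ligands, Dll3, a Notch ligand family member of presomitic mesoderm and new neurons, was at 33.5, 29.7 and 27.2 RPM against 5.81, 5.22 and 5.83 RPM (2.40), and the target Heyl at 60.3 to 68 RPM against 19 to 22.8 RPM (1.66). Among axon guidance ligands 5 of 17 were higher in E10 AoD and 3 in E10 UGR (median 0.11). Sema3g, which arteries express, was at 52.5, 44.6 and 54.1 RPM against 7.64, 7.61 and 6.87 RPM (2.75), and Ntn1, a floor plate netrin, at 228, 235 and 196 RPM against 47, 59.7 and 30.5 RPM (2.31). Ntn4 (1.51), Efna1 (1.24) and Slit3 (1.07) were higher in E10 AoD too, and Sema3c (-1.49), Efnb1 (-1.39) and Sema3b (-1.03) in E10 UGR, Sema3b not without E10 AoD replicate 1 (-0.96) or E10 UGR replicate 1 (-0.997).

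Of 13 gut and liver genes listed, 6 reached the level for testing, of which Sox17, also endothelial, was higher in E10 AoD and 3 were higher in E10 UGR (median -1.03). Without E10 AoD replicate 3 or E10 UGR replicate 1, Itih2 (0.95) also passed the fold threshold (1.09 and 1.14) and 2 were higher in E10 AoD. The endoderm factor Hnf4a was at 2.55, 2.67 and 2.14 RPM in E10 UGR and 0.0512, 0.201 and 0 RPM in E10 AoD (-3.94), and Afp, of yolk sac and fetal liver, was below 1 RPM in all 6 libraries (-1.36). The lowest value, -4.145, was that of Cldn6, named above among the claudins higher in E10 UGR. Cldn6 made up most of the list's summed 68.7 to 70.6 RPM in E10 UGR. The listed members Apoa1, Apob, Cdx2, Fgb, Foxa3, Nkx2-1 and Ttr were below 0.5 RPM in all 6 libraries. Whether the ridge values came from gut or liver cells was not tested. Of 22 cell cycle genes 1 was called, Ccnd2 (143 to 166 RPM against 64.4 to 70.3 RPM, 1.17), and the median was -0.01. Of 17 immediate early genes 2 were called higher in E10 AoD, Atf3 (1.09) and Ier3 (1.17), with a median of 0.67, and Fos (0.63) and Jun (0.61) were not. With the adjusted p alone 15 of the 17 were higher in E10 AoD and 1 in E10 UGR, against 2759 and 4547 of all 17832 genes tested. The groups did not overlap for 16 of the 17, against 51.6% of all genes tested. The summed level was 4673 to 6083 RPM in E10 AoD, 4428 to 5892 RPM in E10 AoV and 3065 to 3754 RPM in E10 UGR. The part of these genes in other results was not tested. Without E10 AoD replicate 3 or E10 UGR replicate 2 the call of Atf3 was lost (0.91 and 0.97) and the count was 1, and without E10 AoD replicate 2 it was 4. Of 8 heat shock genes 1 was called, Hspb1 (1.23), and the median was 0.04. Over all genes tested 11.2% were called.

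E10 AoV, which shares the aorta with E10 AoD and borders the ridges, was set on the same scale for the called genes. Of the 844 genes higher in E10 AoD, its mean was between the others for 484, above both for 117 and below both for 243, and on the log2 scale it was nearer to E10 UGR for 551 and nearer to E10 AoD for 293. Arterial and smooth muscle genes such as Gja5, Dll4, Myh11 and Acta2 were among those nearer to E10 AoD, and Shh, T, Pax1 and Col2a1 among those nearer to E10 UGR. Of the 1150 genes higher in E10 UGR, E10 AoV was between for 775, above both for 278 and below both for 97, and nearer to E10 UGR for 629. Gata4, Kitl and Nr2f2 were on that side, and Cdh16, Pax2 and Wnt9b were nearer to E10 AoD.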

How the data were processed

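RNA was sequenced from dissected tissue of E10.5 C57BL/6 embryos with an unstranded kit. The authors aligned reads to the mouse genome (NCBIM37) with TopHat and Bowtie, divided reads with several positions in proportion to uniquely mapped ones, and deposited RPM for 28876 genes, rounded and not adjusted for length. Bowtie 0.12.3 is named in the submitters' processing notes. The 12 columns of the authors' own comparisons, fold changes and p-values, were not used. In a library 57.7 to 60.0% of values above 0 and below 0.5 RPM lay within 0.5% of a whole multiple of the step of 1 read. Read counts were therefore not recovered over all genes and no count test was run on them. For Foxa2 alone, reads were taken from its RPM and the step of 1 read, to give the interval of its ratio.

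The limma fit (version 3.58.1, R 4.3.3, intensity trend) used log2(RPM + 0.1) of the 6 libraries, after the filter at 0.5 RPM, with Benjamini-Hochberg adjustment over all 17832 genes. Fold changes on this scale understate those of low genes. A call asked for an adjusted p below 0.05 and at least 2-fold. Named were the 15 called genes a direction with the largest change, no overlap, a mean of at least 5 RPM and a known symbol, and in each list up to 4 called members a direction and up to 3 not called with the highest levels. Further members were named after their values were seen, and some genes are not reported here. Members and lists were chosen with earlier results of these data known. The fit was tested on simulated data. Python 3.11.15 wrote the summaries. Alternatives were other pseudocounts, filters, normalizations, fits and each library left out.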

Additional observations from a re-analysis of the deposited data

How the results depend on the processing

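The number of genes called, 1994 (844 higher in E10 AoD, 1150 in E10 UGR), was 1142 (504 and 638) with a pseudocount of 1 RPM, 1063 (431 and 632) when limma's treat tested against a log2 fold change of 1, and 7306 (2759 and 4547) with the adjusted p alone. Leaving out each library in turn gave 1943 to 2026 calls, 810 to 888 higher in E10 AoD and 1122 to 1189 in E10 UGR. Quantile normalization gave 958 and 1026. Of the 185 called genes named, 145 kept call and direction in all alternatives, and 39 lost the call under treat. The values that turned sign belong to genes not called. The log2 fold change of Pax3 was 0.059 with quantile normalization and 0.023 with median-ratio scaling, that of Myog 0.0095 and 0.0042. Leaving out each library gave -0.35 to 0.22 for Pax3, -0.45 to 0.29 for Myog and -0.71 to 0.15 for Myod1, with positive values without E10 AoD replicate 1 or E10 UGR replicate 2 for all of them and without E10 UGR replicate 1 for Pax3 and Myog. The cause was not tested. With a replicate block 2007 genes were called (856 and 1151), and it ended no call of a named gene. The paper pooled tissue in separate experiments, and the labels do not say whether replicate numbers mark them. Deviations of same-numbered libraries correlated with r of 0.0514, 0.371 and 0.239, and those of other pairs with -0.365 to 0.211. E10 AoD replicate 1 correlated best with E10 UGR replicate 3 (0.211). In both groups replicate 1 was the lowest library for all 13 erythroid members tested. Replicate 2 was lowest for 14 (E10 AoD) and 15 (E10 UGR) of 17 immediate early members. It was highest for 15 and 19 of 20 dermomyotome and myotome members. Replicate 3 was lowest for 14 and 12 of 16 sclerotome members. The order was less shared in other lists, such as the Hox genes, lowest in replicate 2 for 13 and 24 of 32. Whether the numbers mark a pairing was not settled, and the main fit used none. Genes near 3 reads per library are limited by depth.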
